A study of Mus musculus with 4 samples.

Results

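Pax5, Ebf1, Cebpa, Spi1, Irf8, Gata2 and Meis1, which encode transcription factors of the B-cell, myeloid and blood stem-cell programmes, were examined for trimethylation of histone H3 at lysine 27 (H3K27me3) in NOTCH1-transduced mouse progenitors. The loci were chosen by gene name and by a fixed window around each gene on the mouse build mm9. Pax5 lay in the window from 44.53 to 44.74 Mb of chromosome 4, Ebf1 from 44.42 to 44.84 Mb of chromosome 11, Cebpa from 35.89 to 35.93 Mb of chromosome 7 and Spi1 from 90.91 to 90.95 Mb of chromosome 2. Irf8 lay in the window from 123.25 to 123.29 Mb of chromosome 8, Gata2 from 88.13 to 88.17 Mb of chromosome 6 and Meis1 from 18.77 to 18.94 Mb of chromosome 11. Whether each window holds its whole gene on mm9 was not checked. Together the 7 windows spanned 960 kb, and were overlapped by 29 of the 20024 peaks of the bone marrow list and by 28 of the 31847 of the fetal liver list.

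The study had 4 samples. The immunoprecipitation of adult bone marrow cells and that of fetal liver cells each came with 1 list of broad H3K27me3 peaks, and the input sample of each cell type served as the control of the peak calls. Bone marrow was taken from C57BL/6 mice at 8 weeks of age, and fetal livers at embryonic day 14.5. In both, lineage-negative cells had been sorted by a panel that included the B-cell antigen B220 and the myeloid antigens Gr1, CD11b and CD11c, so mature cells bearing these were depleted before culture. Both populations were stimulated with IL-3, IL-6, FLT3 ligand and SCF, transduced with a lentivirus encoding NOTCH1ΔE (N1dE, an active form of NOTCH1), cultured for 3 days and sorted again for GFP. No untransduced cells were analysed here, so what N1dE does to these loci cannot be told apart from what the cells brought with them. The comparison asks whether the mark at these loci differed between progenitors of adult and fetal origin. Age and organ, bone marrow or liver, changed together, so they cannot be told apart.

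Each list was called once on merged libraries, so there is no replicate error and no test between the cell types. The lists hold no expression values, so neither the identity of the cells nor the activity of the 7 genes could be checked against the labels. Read depth is unknown, and depth alone can lengthen a peak list. Over chromosomes 1 to 19 and X the bone marrow peaks covered 40.4 Mb and the fetal liver peaks 60.8 Mb, a ratio of 0.664, and this is the level beside which the values of the 7 windows are set.

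H3K27me3 is laid down by Polycomb repressive complex 2, is found over the promoters and gene bodies of developmental regulators that are silent or poised, and often starts at stretches rich in CpG dinucleotides. In blood formation, multipotent progenitors keep the genes of several lineages accessible and close those of the fates they leave. NOTCH1 signalling directs progenitors towards the T-cell fate and away from the B-cell fate. Pax5, the factor that commits cells to the B lineage, and Ebf1, which acts before and with it, stand for the B-cell programme. Cebpa, needed for granulocyte formation, Spi1, which encodes PU.1, and Irf8, which guides monocyte and dendritic cell formation, stand for the myeloid programme. Gata2 and the homeobox cofactor Meis1 maintain stem and progenitor cells.

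The sequences before the gene starts show the CpG-rich stretches around which the mark is often found. RefSeq promoters on GRCm38.p6 were at hand for 6 of the 7 genes, and Spi1 had no entry. The peaks are on mm9, so the promoter positions given here cannot be set against them. Among the 250 bases before each listed start, the CpG-richest promoter of Irf8 held 29 CpG dinucleotides, that of Gata2 24, that of Cebpa 22, that of Pax5 19, that of Ebf1 14 and that of Meis1 13. The median over 32851 promoters of the table was 6, taken over all of them and not the CpG-richest of each gene. The other listed promoter held 8 CpG for Irf8, 9 for Ebf1 and 22 for Gata2. Printed here are 4 of them, which stand for the peak patterns found at these loci: Pax5, covered less in bone marrow, Ebf1 and Gata2, covered more, and Cebpa, with no peak. They run 5′ to 3′ and the capitals mark CpG.
Pax5, chr4:44710695-44710944, minus strand: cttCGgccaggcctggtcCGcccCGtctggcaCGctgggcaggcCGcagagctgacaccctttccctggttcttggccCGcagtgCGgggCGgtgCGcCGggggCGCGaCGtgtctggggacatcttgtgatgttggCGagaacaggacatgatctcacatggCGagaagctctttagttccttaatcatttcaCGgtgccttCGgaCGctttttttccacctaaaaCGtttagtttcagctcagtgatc
Ebf1, chr11:44619978-44620227, plus strand: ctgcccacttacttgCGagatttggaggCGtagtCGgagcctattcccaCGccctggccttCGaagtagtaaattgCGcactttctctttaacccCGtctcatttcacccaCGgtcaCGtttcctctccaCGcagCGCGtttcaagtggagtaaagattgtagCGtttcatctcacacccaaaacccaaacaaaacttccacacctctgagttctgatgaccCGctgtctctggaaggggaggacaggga
Gata2, chr6:88198414-88198663, plus strand: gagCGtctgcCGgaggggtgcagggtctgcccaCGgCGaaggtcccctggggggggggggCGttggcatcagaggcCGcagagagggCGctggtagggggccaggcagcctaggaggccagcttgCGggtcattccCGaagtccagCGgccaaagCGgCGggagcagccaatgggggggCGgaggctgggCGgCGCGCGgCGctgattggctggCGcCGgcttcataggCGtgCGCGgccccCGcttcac
Cebpa, chr7:35119043-35119292, plus strand: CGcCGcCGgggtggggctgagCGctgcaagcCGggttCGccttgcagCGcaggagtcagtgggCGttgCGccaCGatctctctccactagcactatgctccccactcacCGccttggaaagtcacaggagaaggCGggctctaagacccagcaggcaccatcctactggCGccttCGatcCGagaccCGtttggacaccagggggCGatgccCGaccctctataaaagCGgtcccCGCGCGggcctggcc
Of the promoters in the table, 14.8% held at least as many CpG as that of Cebpa, 12% as that of Gata2, 19.7% as that of Pax5 and 29.4% as that of Ebf1. The observed over expected CpG ratio was 0.741 for Gata2, 0.801 for Cebpa, 0.853 for Ebf1 and 0.88 for Pax5, against a median of 0.373 over the table. For the CpG-richest promoters not printed, it was 1.03 for Irf8 and 0.595 for Meis1.

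H3K27me3 peaks covered more sequence in bone marrow than in fetal liver progenitors at 4 of the 5 marked loci, and less at Pax5. Peaks were called at Pax5, Ebf1, Irf8, Gata2 and Meis1 in both lists, and at Cebpa and Spi1 in neither. Some of these calls were weak. At Irf8 the −log10 q was 1.19 in bone marrow and 1.15 in fetal liver, and at Meis1 it did not exceed 1.21 in fetal liver. In all, the 7 windows held 83.1 kb of bone marrow peaks and 80.3 kb of fetal liver peaks, a ratio of 1.03, against 0.664 over all chromosomes. Pax5 alone gave 31.5 kb of the bone marrow and 55.5 kb of the fetal liver sum. The ratio depended on which peaks were kept. It was 0.966 with each window widened by 10 kb on both sides. It was 21.4 when peaks had to reach 2 on the −log10 q scale. With a fold enrichment over input of at least 3 it was 7.06. The ratio over all chromosomes at these limits was not computed. A −log10 q of 2 was reached by 26.5% of all bone marrow peaks but by 15.2% of all fetal liver peaks. At Ebf1 the fetal liver peaks overlapping the 2 widest bone marrow peaks missed that limit, at 1.61 and 1.71. The number of windows covered more in bone marrow was 3 with the limit of 2 on −log10 q and 2 with the fold limit, and 1 when −log10 q had to reach 5. Where −log10 q had to reach 2, peaks were left in bone marrow at Ebf1 (18.8 kb), Gata2 (5.29 kb) and Meis1 (3.68 kb), and in fetal liver at Pax5 (0.931 kb) and Gata2 (0.363 kb), and Irf8 had none in either list.

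**Figure D1:**
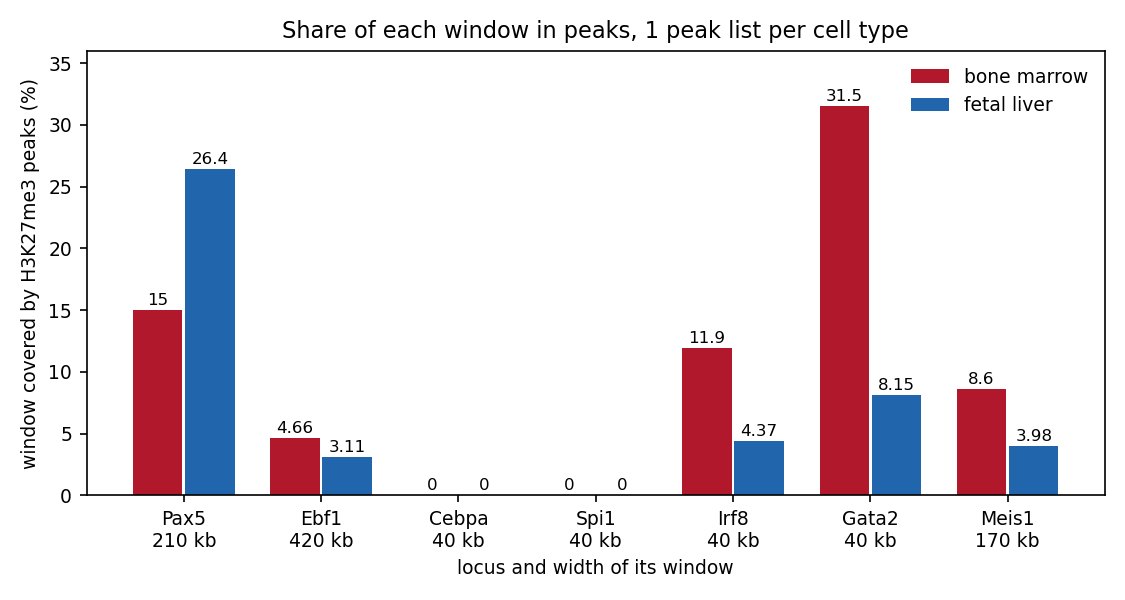
Share of each window covered by H3K27me3 peaks, in percent, with bone marrow left of fetal liver and 1 peak list for each, so that no error bars can be drawn. Bone marrow bars are higher at Ebf1, Irf8, Gata2 and Meis1, the fetal liver bar is higher at Pax5, and Cebpa and Spi1 are at 0 in both.

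In bone marrow the order of the loci by covered share was Gata2 (31.5%), Pax5 (15.0%), Irf8 (11.9%), Meis1 (8.60%) and Ebf1 (4.66%). In fetal liver it was Pax5 (26.4%), Gata2 (8.15%), Irf8 (4.37%), Meis1 (3.98%) and Ebf1 (3.11%). The windows differ in how much flanking sequence they hold, so this order describes the windows and not the genes. Tiles of the same widths, laid end to end along chromosomes 1 to 19 and X, give the background. Of 40 kb tiles, 15% held a bone marrow peak and 19.7% a fetal liver peak, and of the 4 windows of this width, Irf8 and Gata2 held peaks of both lists. The shares for bone marrow and fetal liver were 35.6% and 41.3% at 170 kb, 39.7% and 45.4% at 210 kb, and 54% and 59.2% at 420 kb. Tiles include gene-poor sequence, so a window around a developmental gene is not their match.

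Among tiles with a peak of either list, the bone marrow share was the larger in 25.7% at 40 kb, 24.8% at 170 kb, 24.4% at 210 kb and 22.9% at 420 kb, against 4 of the 5 marked windows. A difference was called when one list covered at least 1.5 times as much as the other. Bone marrow passed this fold at Irf8, Gata2 and Meis1, where 16.5% of 40 kb tiles and 14.3% of 170 kb tiles did so. Ebf1, at a ratio that rounds to 1.50, lay just under it, and 11.3% of 420 kb tiles passed. Fetal liver passed it at Pax5, as did 53% of 210 kb tiles, so the direction at Pax5 was the common one and that at the other 4 loci the uncommon one. These tiles include those marked in 1 list only, whereas the 5 marked windows held peaks of both. Among tiles with peaks of both lists, bone marrow passed the fold in 12.2% at 40 kb, 10.5% at 170 kb and 8.61% at 420 kb. Fetal liver passed it in 46.1% of such tiles at 210 kb. The loci were chosen with earlier results of these data known, and the counts are given without a test.

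**Figure D2:**
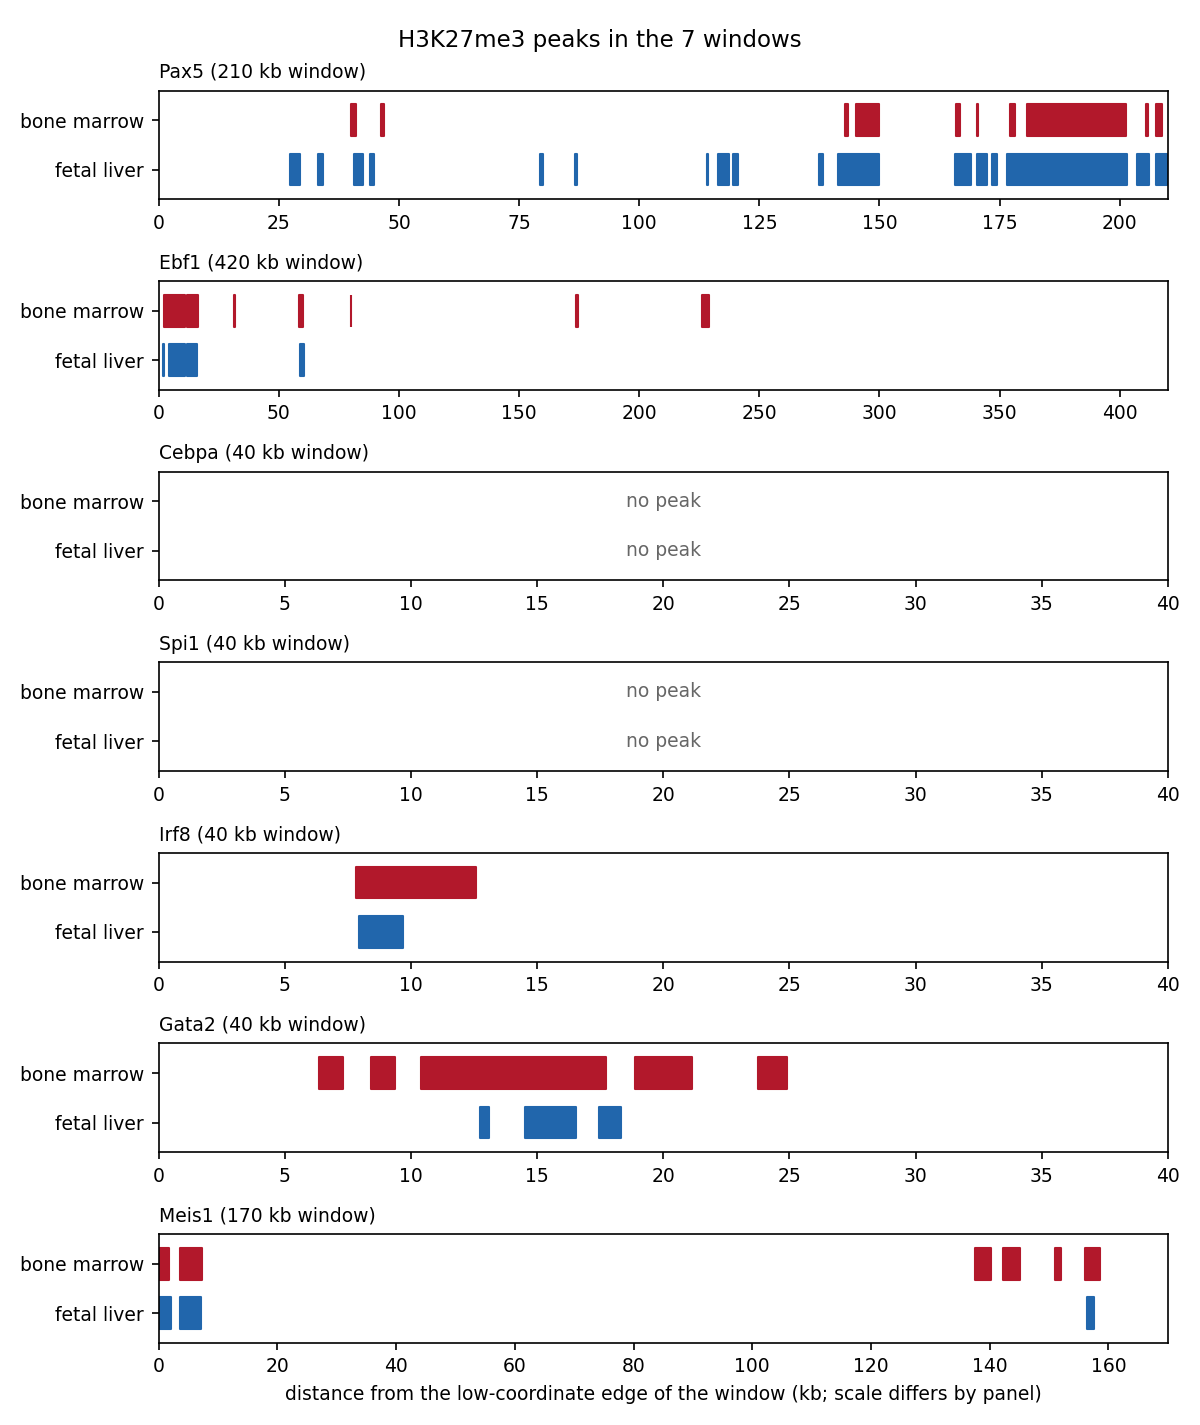
Peaks of the bone marrow list (upper row) and of the fetal liver list (lower row) in each window, with the distance from the low-coordinate edge in kb on the horizontal axis and a different scale in each panel. At Pax5 the fetal liver row is fuller between 50 and 140 kb, at Ebf1 the bone marrow row alone reaches past 70 kb, and at Gata2 the bone marrow row extends to both sides of the 3 fetal liver peaks.

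At Pax5, the mark covered less in bone marrow than in fetal liver, and most of what bone marrow had was also marked in fetal liver. The window held 10 bone marrow peaks over 31.5 kb and 17 fetal liver peaks over 55.5 kb, a ratio of 0.568, against 0.664 over all chromosomes. Few of these peaks were strong: with −log10 q at or above 2 the Pax5 window kept 0 bone marrow peaks and 1 fetal liver peak of 0.931 kb, and with fold at or above 3 it kept 0 in bone marrow and 1 of 0.802 kb in fetal liver. Of the bone marrow bases 95.8% lay in fetal liver peaks, whereas 54.4% of the fetal liver bases lay in bone marrow peaks. The gene is read from the minus strand, so its start is on the high-coordinate side, although its place on mm9 was not determined. On that side each list had its widest peak of all 7 windows. In bone marrow it spanned 20.8 kb, from 44710626 to 44731392 on chromosome 4, at a fold enrichment over input of 2.27 and −log10 q 1.68, both as the authors' peak caller gave them. In fetal liver it spanned 25.0 kb, from 44706619 to 44731622, at fold 1.87 and −log10 q 1.04. The bone marrow peak lay wholly inside the fetal liver peak, and their high-coordinate ends were 230 bp apart.

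The additional Pax5 coverage of fetal liver came both from longer peaks and from separate ones. Of the 25.3 kb marked in fetal liver alone, 15.4 kb belonged to the 7 peaks that overlapped a bone marrow peak and 9.86 kb to the 10 that did not. The overlapping share of fetal liver peaks here, 41.2%, was near the 39.8% of the whole fetal liver list, so separate peaks were as common as elsewhere. In the part of the window between 50 and 140 kb from its low-coordinate edge, limits set after the peaks were seen, bone marrow had 0 peaks and fetal liver had 6 over 5.19 kb. The most isolated of these was 39.7 kb from the closest bone marrow peak. In the last 40 kb of the window each list had 5 peaks, taking up 23.7 kb in bone marrow, against 32.8 kb in fetal liver. Only 1 bone marrow peak at Pax5 had no overlap, a peak of 577 bp at the lowest fold of all bone marrow members (1.12). The mark did not stop at the window: in the 100 kb above it, bone marrow peaks took up 14.3 kb and fetal liver peaks 17.8 kb, and in the 100 kb below it 6.55 kb in bone marrow, against 11.1 kb in fetal liver. On GRCm38.p6 the coding genes next to Pax5 are Melk and Zcchc7, and which of them these flanks hold on mm9 was not determined.

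At Ebf1, the other B-cell factor, both lists marked the start side of the gene alike, and bone marrow alone carried peaks deep in the window. There were 7 bone marrow peaks over 19.6 kb and 4 fetal liver peaks over 13.0 kb, a ratio of 1.50. The gene is read from the plus strand, so its start is on the low-coordinate side. There, a pair of wide peaks stood side by side in each list. The first spanned 8.76 kb in bone marrow, from 44422218 to 44430977, and 6.61 kb in fetal liver, from 44424167 to 44430777. The next spanned 4.61 kb in bone marrow, against 4.26 kb in fetal liver. These 4 peaks ranked high by −log10 q in their own lists, at percentiles 82.6 and 77.2 in bone marrow and 74.8 and 77.6 in fetal liver.

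Further into the Ebf1 window the lists parted. A bone marrow peak of 1.71 kb from 44478188 to 44479894 had fold 4.79 and −log10 q 6.42, at percentile 99.6 of its list and the highest among all member peaks. The fetal liver peak at this place, of 1.69 kb, had fold 1.84 and −log10 q 0.99, at percentile 42.5 of its list, and 75.9% of the bone marrow peak lay in it. From 70 kb to the end of the window, limits set after the peaks were seen, bone marrow had 3 peaks over 3.88 kb and fetal liver had 0. The widest of them spanned 3.00 kb, from 44646214 to 44649214, with fold 3.18 and −log10 q 3.58, at percentile 94.6. Fetal liver had its closest peak 166 kb from there. A peak of 682 bp, from 44593753 to 44594434, was 113 kb from the closest fetal liver peak. A −log10 q of at least 2 was reached by 5 of the 7 bone marrow peaks and by 0 of the 4 fetal liver peaks, against 26.5% of all bone marrow peaks and 15.2% of all fetal liver peaks. The surroundings of Ebf1 were bare, with 0 peaks of either list in the 100 kb on both sides.

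Peaks in the windows of the B-cell pair summed to 51.1 kb in bone marrow, against 68.5 kb in fetal liver, a sum that hides opposite directions at the 2 loci. The ranks differed as well. The median percentile of −log10 q within a peak's own list was 30.8 in bone marrow and 55.8 in fetal liver at Pax5, and 79.4 in bone marrow and 58.6 in fetal liver at Ebf1. These ranks come from lists of unequal length and are a description of each list only.

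**Figure D3:**
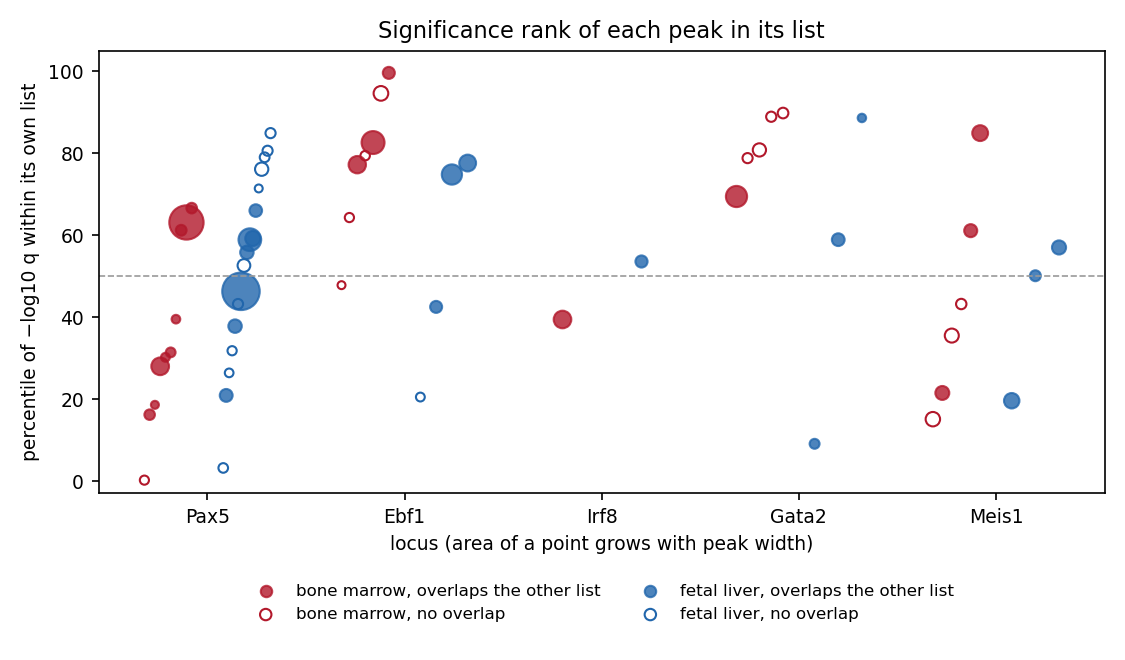
Percentile of the −log10 q of each peak within its own list, by locus, with bone marrow points left of fetal liver points, filled where the peak overlaps one of the other list and open where it does not. The area of a point grows with the width of its peak and the dashed line is at percentile 50. Bone marrow points reach 99.6 at Ebf1 and 89.8 at Gata2. They run from 0.225 to 66.6 at Pax5 and from 15.1 to 84.9 at Meis1.

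Of the myeloid factors, only Irf8 carried a peak, and the 40 kb windows of Cebpa and Spi1 had none in either list. Windows without a peak were common: 78.3% of the 40 kb tiles held no peak of either list. The peak caller's threshold and the unknown depth limit what a missing peak shows, and a weaker signal at these genes was not detectable from the lists. Around Spi1 the marked sequence was far away. The closest bone marrow peak was 177 kb below and 142 kb above the window, and the closest fetal liver peak 179 kb below and 143 kb above. Around Cebpa it was closer. The next bone marrow peak was 17.4 kb below and 35.0 kb above the window, and the next fetal liver peak 1.21 kb below and 36.3 kb above. The 100 kb above the Cebpa window held 18.9 kb of bone marrow and 18.1 kb of fetal liver peaks, so the empty window lay beside a domain of nearly equal extent in both lists. On GRCm38.p6 the coding gene that follows Cebpa is Slc7a10, an amino acid transporter gene.

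At Irf8, 1 peak was called in each list, and the bone marrow peak was the longer. It spanned 4.76 kb, from 123257807 to 123262569 on chromosome 8, and the fetal liver peak 1.75 kb, from 123257926 to 123259673, a ratio of 2.72. The fetal liver peak lay wholly inside the bone marrow peak, and they began 119 bp apart on the low-coordinate side, which is the start side of this plus-strand gene. Fold enrichment was 2.20 in bone marrow and 1.39 in fetal liver. The −log10 q was 1.19 in bone marrow and 1.15 in fetal liver, at percentiles 39.5 and 53.8 of the lists, so neither peak was among the better supported of its list. Above the window the order was the opposite. In the 100 kb above the window bone marrow peaks took up 0.754 kb and fetal liver peaks 11 kb, whereas below it bone marrow had more, with 5.64 kb against 1.48 kb in fetal liver. On GRCm38.p6 the next coding gene above Irf8 is Foxf1, a forkhead factor gene of the mesoderm.

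At the stem-cell gene Gata2, bone marrow had the denser and longer domain, with the largest ratio of the marked loci. There were 5 bone marrow peaks over 12.6 kb and 3 fetal liver peaks over 3.26 kb, a ratio of 3.87. The peaks of bone marrow began 6.36 kb and ended 24.9 kb from the low-coordinate edge, a span of 18.5 kb, and those of fetal liver spanned 5.60 kb within it. The widest bone marrow peak, of 7.33 kb from 88140408 to 88147734 on chromosome 6, overlapped all 3 fetal liver peaks. The other 4 bone marrow peaks, of 929 to 2271 bp, overlapped none, although the closest of them was 557 bp from a fetal liver peak. Of the 9.95 kb marked in bone marrow alone, 5.29 kb lay in these 4 peaks and 4.66 kb in the wide one. The widest fetal liver peak spanned 2.04 kb, from 88144517 to 88146554.

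The Gata2 peaks of bone marrow were also among the better supported of their list. Their fold enrichment ran from 2.22 to 3.05 and their −log10 q from 1.87 to 2.90, at percentiles 69.5 to 89.8. In fetal liver fold ran from 1.6 to 2.80 and −log10 q from 0.65 to 2.22, at percentiles 9.09 to 88.6, the highest being that of a peak of 363 bp. Of all 65963 tiles of 40 kb, 615 (0.932%) were covered in bone marrow at least as much as the Gata2 window was there, and 5482 (8.31%) were covered in fetal liver at least as much as that window was in fetal liver. Most tiles could not reach these values, since 78.3% held no peak of either list. A bone marrow peak was held by 9923 tiles and a fetal liver peak by 12979. In 8 tiles bone marrow exceeded fetal liver by at least the 9.35 kb of Gata2, whereas 281 reached the 3.02 kb of Irf8. Among all tiles of their own widths, 0.226% reached the difference of Meis1, 0.829% that of Ebf1 and 1.1% that of Pax5, each in its direction. Here too many tiles could not, since no peak of either list was held by 55.9% at 170 kb, 38.2% at 420 kb and 51.7% at 210 kb. Above the Gata2 window the order was the opposite: in the 100 kb above it bone marrow peaks took up 1.08 kb and fetal liver peaks 6.83 kb, whereas below it they took up 4.32 kb in bone marrow, against 0.532 kb in fetal liver. On GRCm38.p6 the coding neighbours of Gata2 are Rpn1 and Dnajb8.

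At Meis1, the peaks on the low-coordinate side were nearly the same in both lists, and those on the high-coordinate side were mostly of bone marrow. The window held 6 bone marrow peaks over 14.6 kb and 3 fetal liver peaks over 6.77 kb, a ratio of 2.16, and 95% of the fetal liver bases lay in bone marrow peaks. Meis1 is read from the minus strand, so its start is on the high-coordinate side. On the low-coordinate side, a peak of 3.68 kb in bone marrow, from 18773600 to 18777279 on chromosome 11, stood against one of 3.45 kb in fetal liver, from 18773603 to 18777048. The −log10 q was 2.53 in bone marrow, the only Meis1 peak to reach 2, and 0.76 in fetal liver. A second pair crossed the edge of the window, with 2.17 kb in bone marrow, against 2.71 kb in fetal liver.

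On the start side of Meis1, bone marrow had 4 peaks of 1038 to 2878 bp and fetal liver had 1 of 1.25 kb. That fetal liver peak, from 18926359 to 18927605, lay inside a bone marrow peak of 2.62 kb. The other 3 bone marrow peaks were 16.2, 11.3 and 4.33 kb from the closest fetal liver peak and made up 6.57 kb of the 8.18 kb marked in bone marrow alone. They ranked low in their list, at percentiles 15.1 to 43.2 of −log10 q. Beyond the window on this side, the next bone marrow peak was 1400 kb away and the next fetal liver peak 63.5 kb away.

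**Figure D4:**
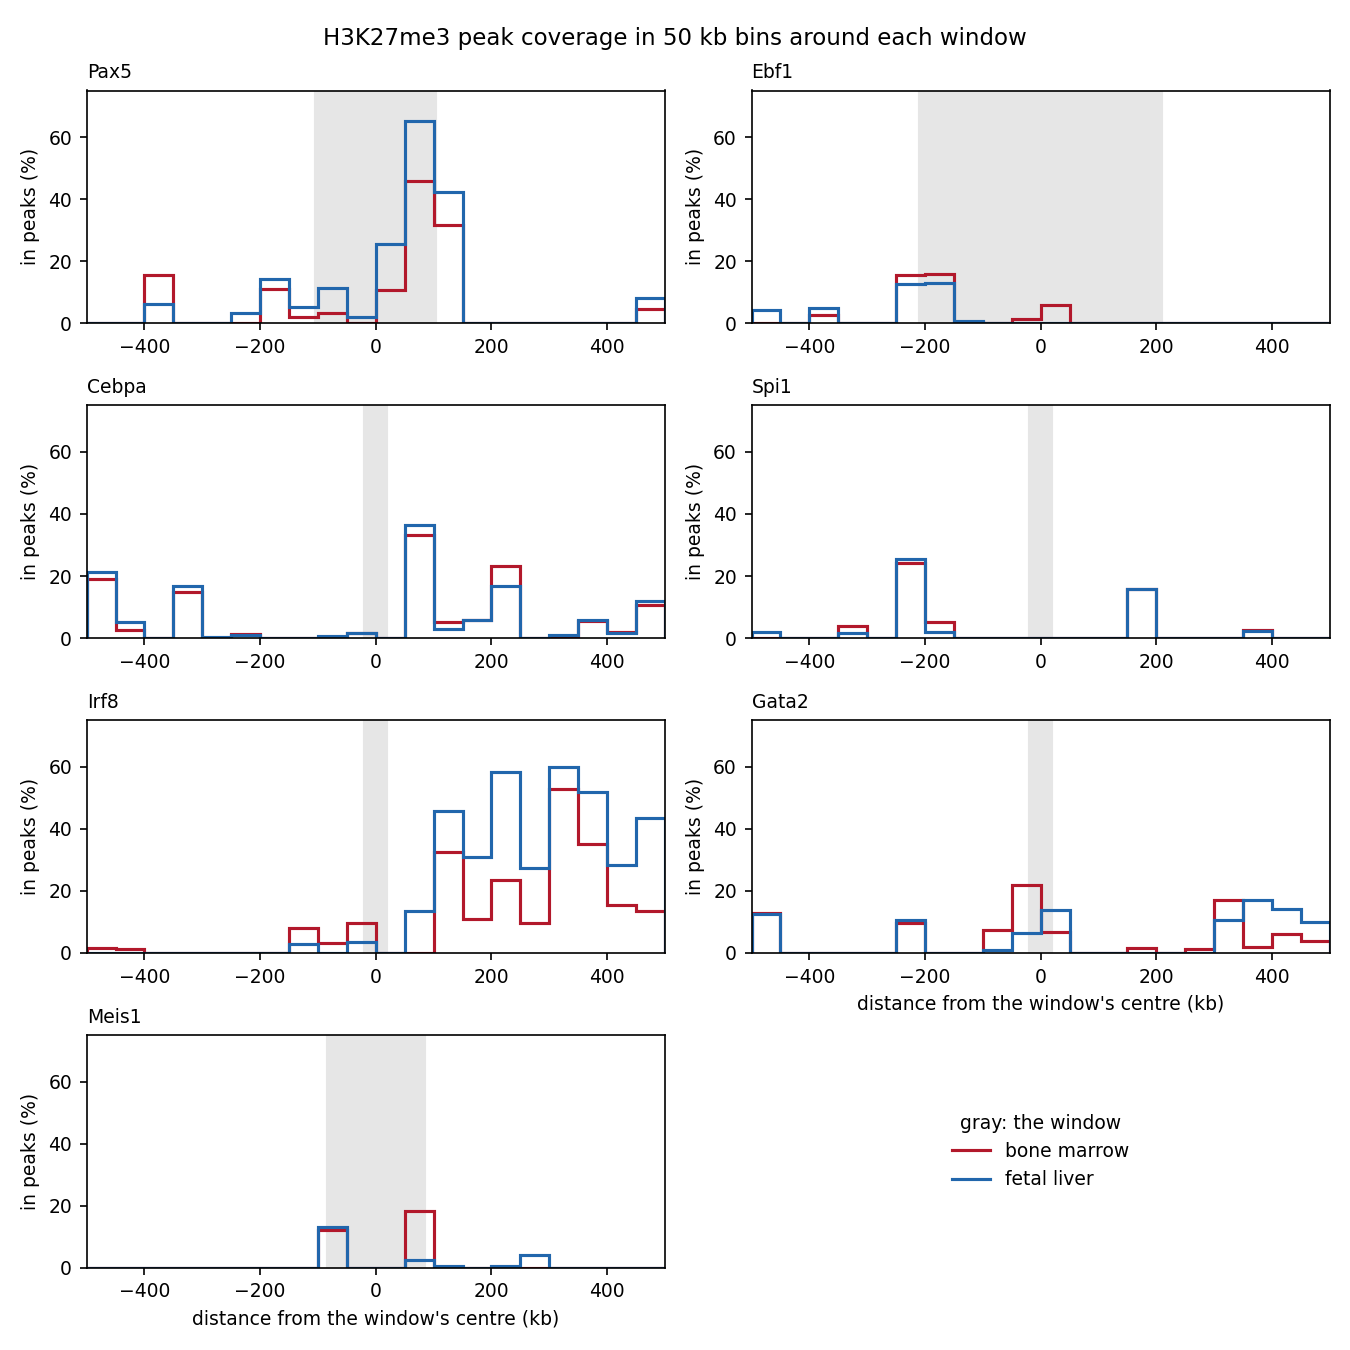
Percent of each 50 kb bin covered by bone marrow and fetal liver peaks, from 500 kb below to 500 kb above the centre of each window, which is shaded. The bin above the centre of Gata2 and the bins from 50 kb above that of Irf8 are covered more in fetal liver, whereas the bins just below both centres are covered more in bone marrow.

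Over the 7 windows the lists shared 53.1 kb, which was 64% of what bone marrow peaks covered and 66.2% of what fetal liver peaks covered. By peaks, 17 of 29 in bone marrow (58.6%, 95% Wilson interval 40.7 to 74.5%) and 17 of 28 in fetal liver (60.7%, 42.4 to 76.4%) overlapped one of the other list, against 68% and 39.8% in the whole lists. Peaks of 1 locus share their surroundings, which makes these intervals too narrow. The overlap was uneven: 9 of 10 bone marrow peaks overlapped at Pax5 and 1 of 5 at Gata2, while 7 of 17 fetal liver peaks overlapped at Pax5 and 3 of 3 at Gata2. Peaks without an overlap were shorter, with a median width of 996.5 bp against 2174 bp for overlapping peaks in bone marrow, and 802 bp against 2381 bp in fetal liver. Overlap was counted from 1 bp, which a wide peak meets more easily, so this direction follows in part from the definition. The widths of both classes in the whole lists were not compared. Among all member peaks, 10 of 29 in bone marrow and 2 of 28 in fetal liver reached a −log10 q of 2 or more, against 26.5% of all bone marrow peaks and 15.2% of all fetal liver peaks. None of those 10 overlapped one of those 2, which says little with so few peaks left. At Pax5, where 1 of the 2 lay, 0 bone marrow peaks reached the limit. The other, of 363 bp at Gata2, lay wholly inside a bone marrow peak that just missed it, at 1.87.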

How the data were processed

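Chromatin digested with micrococcal nuclease was immunoprecipitated for H3K27me3 without crosslinking and sequenced, per the labels' protocols. The tools named by the submitters' processing notes are BWA 0.5.7, Picard and MACS2 2.1.0, on mm9. Settings, filters and read numbers were not given in the sources used. Each list rests on merged libraries set against input, per the peak names in the files. In the deposited columns, the authors give for each peak the fold enrichment (the ratio of immunoprecipitation over input) and the −log10 of its p and q. A deposited score, 10 times the −log10 q as a whole number in all but 1 peak of each list, was left out. Fold and significance served to describe, rank or filter peaks within a list.

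The members, the windows and the gene groups were chosen with earlier results of these data known. All 7 were named. A peak belonged to a window from 1 bp of overlap and was cut at its edges for covered length. Background tiles ran from each chromosome start, with mm9 lengths from GenomeInfoDb 1.38.1. Python 3.11.15 with numpy 2.4.6 and pandas 2.3.3 was used for overlaps, scipy 1.17.1 for intervals and matplotlib 3.10.9 for figures. The code was tested on simulated data against bedtools 2.31.1. Wilson intervals cover counting error over peaks only. Coordinates count from 1. No gene positions on mm9 were used, so no peak was assigned to an exon, intron or promoter, and other factors of these lineages were not analysed here.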

Additional observations from a re-analysis of the deposited data

How the results depend on the processing

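No paired analysis was possible because each cell type has a single list. As reported, 5 windows held a bone marrow and 5 a fetal liver peak, 4 were covered more in bone marrow, the summed ratio of bone marrow to fetal liver was 1.03, and the overlapping share was 58.6% in bone marrow and 60.7% in fetal liver. A −log10 q of at least 2 left peaks in 3 bone marrow and 2 fetal liver windows, a ratio of 21.4 and overlaps of 0% and 0%. A −log10 q of at least 5 left 1 and 0 windows, 1 window covered more in bone marrow and an overlap of 0% of bone marrow peaks. No ratio could be formed there, since no fetal liver peak was left. A fold enrichment of at least 3 left 2 and 1 windows, 2 covered more in bone marrow, a ratio of 7.06 and overlaps of 0% and 0%. The cuts leave few peaks by construction, and the cut at 2 kept 26.5% of all bone marrow and 15.2% of all fetal liver peaks. Widening the windows by 10 kb turned the summed ratio to 0.966, and requiring cover of 50% of a peak moved the fetal liver overlap to 39.3%. With only as many of the best-ranked fetal liver peaks as there were in bone marrow, fetal liver covered 51.6 kb at Pax5, 12.6 kb at Ebf1, 1.75 kb at Irf8, 2.40 kb at Gata2 and 3.32 kb at Meis1. The difference of no single locus changed sign under the 9 alternatives of its covered length. It became 0 under 1 for Pax5 and Gata2, 2 for Meis1 and 3 for Irf8, all of them cuts on significance or fold, shrank for Pax5 to 0.931 and 0.802 kb in favour of fetal liver with −log10 q at or above 2 and fold at or above 3, and ran from 1.71 to 18.8 kb for Ebf1. The constant sign says little at the 4 loci covered more in bone marrow, since the cut at 2 kept a smaller share of fetal liver peaks. Counting whole peaks changed the difference at Meis1 only. Widening brought a fetal liver peak of Cebpa into its window for 0.247 kb, and Spi1 stayed at 0 in all 9. The unknown depth limits each comparison of covered length.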
